A study of Mus musculus with 24 samples.

Results

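The 7 genes of macrophage fusion and of the TREM2 pathway followed here across 6 groups of cultured mouse macrophages are Dcstamp, Ocstamp, Cdh1, Cd9, Sirpa, Trem2 and Tyrobp. Their members are 75 of the 144411 ATAC-seq peaks, stretches of open DNA that a transposase could cut and tag. A peak belongs to the gene that the authors' deposited table names for it (37 peaks) or, where that table has no entry, to the nearest transcription start site (TSS) listed in it within 50 kb (38 peaks). Cd9 has 19 peaks, Sirpa 19, Ocstamp 13, Cdh1 10, Dcstamp 5, Tyrobp 5 and Trem2 4. The nearest start site does not show which gene a peak acts on, and for 31 of the 75 peaks an end of a gene that the deposited table does not list lies nearer.

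Some macrophages fuse into multinucleated giant cells when they meet IL4, as osteoclast precursors do in bone. The fusing cells need DC-STAMP and OC-STAMP, membrane proteins encoded by Dcstamp and Ocstamp. Such cells hold on to each other through adhesion molecules such as E-cadherin (Cdh1). Tetraspanins such as CD9 organise membrane proteins at the contact between cells, and SIRP-alpha (Sirpa) is a receptor with the ligand CD47. TREM2 is a lipid-sensing receptor of macrophages and microglia that signals through DAP12 (Tyrobp), a membrane adaptor with an activation motif bound by the kinase SYK, and DAP12 also serves the receptors that drive osteoclast fusion.

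The macrophages were grown for 5 days in L-cell conditioned medium from the bone marrow of male mice aged 8 to 10 weeks. On C57BL/6, wild-type (WT) cells were GRIP1wt/wt and knockout (KO) cells GRIP1fl/fl, and both were LysM-Cre+/+, so the controls carried the Cre as well. LysM-Cre is made in myeloid cells, and Ncoa2 is the gene of GRIP1, a coactivator of nuclear receptors. Cells of either genotype were exposed for 24 hours to vehicle, to the glucocorticoid dexamethasone (Dex) at 100 nM, or to interleukin 4 (IL4) at 10 ng/ml, with 4 libraries a group. The vehicle libraries' treatment label reads 25 hours where their titles read 24. No label says that the 4 libraries came from separate mice or cultures, so a p-value here reflects library-to-library spread, which may be technical.

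The 24 libraries held 5820149 to 21939330 counts in peaks, and WT Dex replicate 2 was the shallowest. Levels are in CPM, the counts of a peak scaled to a common library size with TMM factors, given as mean ± SD of 4 libraries, and differences are log2 fold changes with their standard error (SE). Calls are at an adjusted p under 0.05 in edgeR's quasi-likelihood test, with Benjamini-Hochberg adjustment over 130103 tested peaks. All 8 macrophage markers had a peak within 1 kb of their start site, while none of 4 fibroblast and none of 4 T and NK cell markers did. Promoter peaks of the macrophage markers summed to 216 to 240.2 CPM in WT vehicle and 173 to 188.3 with IL4. Of 4 osteoclast markers Ctsk and Acp5 had a promoter peak, Calcr and Oscar had none, and the sum was 8.33 to 11.4 CPM in WT vehicle and 13.3 to 18.6 with IL4. Of 5 neutrophil markers S100a8 and Csf3r had one, Ly6g, Mpo and Elane had none, and the sum was 22.5 to 31.0 CPM in WT vehicle and 34.5 to 39.1 with Dex. Their part in the results below was not tested, and in bulk libraries a change in the share of cells and a change per cell cannot be told apart. The Ncoa2 promoter peak had 85.6 ± 1.85 CPM in WT vehicle and 87.0 ± 4.16 in KO vehicle; the labels do not place the floxed segment, so this peak does not check the deletion.

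Promoter sequence from RefSeq (GRCm38.p6, the build also called mm10) matched Cd9 and Trem2. Only these 2 are shown, as no promoter sequence was at hand for the other genes. Their promoter peaks cover all 250 bases before the start site. With Dex these peaks went opposite ways, and a link to the sequences was not tested. The Cd9 stretch is chr6:125494761-125495010 on the minus strand and the Trem2 stretch is chr17:48346151-48346400 on the plus strand, each read 5′ to 3′ toward the gene.
Cd9: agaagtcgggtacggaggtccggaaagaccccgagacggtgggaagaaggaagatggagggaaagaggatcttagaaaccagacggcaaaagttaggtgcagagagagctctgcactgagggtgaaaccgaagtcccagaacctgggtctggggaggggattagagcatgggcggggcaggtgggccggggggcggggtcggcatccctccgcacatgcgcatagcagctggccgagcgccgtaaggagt
Trem2: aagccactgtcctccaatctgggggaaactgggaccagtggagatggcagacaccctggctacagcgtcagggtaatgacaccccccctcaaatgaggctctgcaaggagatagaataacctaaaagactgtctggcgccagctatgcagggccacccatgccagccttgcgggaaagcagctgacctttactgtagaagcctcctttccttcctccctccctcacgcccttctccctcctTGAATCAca

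Capitals mark the only match to the motifs searched on both strands: TGAATCA in Trem2, which begins 9 bases before the start site and matches the AP-1 motif TGANTCA. AP-1 letters occurred in 6.75% of 32851 promoter windows of the same length. The STAT6 motif (TTC and GAA with 4 bases of any kind between them) occurred in 5.85%, the PU.1 motif GAGGAAGT in 2.44% and the glucocorticoid receptor motif (GNACA and TGTNC with 3 bases of any kind between them) in 0.387%, and none of these 3 was in either window. GC content was 61.6% in the Cd9 window and 56.0% in the Trem2 window.

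Of the 7 genes 6 had a promoter peak, the peak nearest the start site and within 1 kb of it. Per kb of peak in WT vehicle, Sirpa was the most open at 66.9 ± 2.73 CPM per kb, followed by Tyrobp at 39.0 ± 1.99, Trem2 at 23.3 ± 3.24 and Cd9 at 11.6 ± 1.501. Cdh1 at 4.37 ± 1.04 and Dcstamp at 3.27 ± 0.564 CPM per kb came last, and the SDs of these 2 neighbours overlapped while those of the others did not. Among 13872 promoter peaks the median was 18.2 CPM per kb, with Sirpa at percentile 95.1 and Dcstamp at percentile 5.34. The promoters of the receptors SIRP-alpha and TREM2 and of the adaptor DAP12 were above that median, and Dcstamp and Cdh1 were among the least open promoters. Ocstamp had no peak within 1 kb, the nearest lying at -1698, counted in bases from the start site to the middle of the peak with upstream negative.

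With IL4, 19 of the 71 tested peaks were higher and 10 lower than in WT vehicle, which is 40.8% called; of all tested peaks 35.4% were called, 19.3% higher and 16.1% lower. The median log2 fold change of the 71 peaks was 0.12, against -0.02 for all tested peaks. With Dex, 6 peaks were higher and 20 lower, or 36.6%, where 16.6% of all tested peaks were called, 8.57% higher and 8.08% lower. The median was -0.14, against 0.01 for all. DESeq2 called 17 of the 71 peaks with Dex, 3 higher and 14 lower (8130 and 7841 of all peaks), and scaling by total counts gave 3 higher and 21 lower (8659 and 12744 of all peaks). Both comparisons use the same WT vehicle libraries. Of the 71, 5 peaks were called higher with IL4 and lower with Dex, 3 were higher with both, 6 lower with both and 1 lower with IL4 and higher with Dex. Compared directly, IL4 against Dex, 29 of the 71 peaks were higher and 6 lower (45.1% of all tested peaks were called, 23.3% higher and 21.7% lower). By gene, IL4 peaks were higher and lower 5 and 2 times in Cd9, 5 and 0 in Sirpa, 4 and 0 in Cdh1, 2 and 6 in Ocstamp, 2 and 0 in Dcstamp, 1 and 0 in Trem2 and 0 and 2 in Tyrobp. For Dex the numbers were 0 and 8 in Cd9, 0 and 4 in Sirpa, 1 and 0 in Cdh1, 1 and 6 in Ocstamp, 0 and 2 in Dcstamp, 3 and 0 in Trem2 and 1 and 0 in Tyrobp. Of the 19 peaks higher with IL4, 2 were within 1 kb of the start site, as were 1 of the 10 lower and 4 of the 42 not called, with median distances of 8.51, 27.8 and 13.6 kb.

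**Figure D1:**
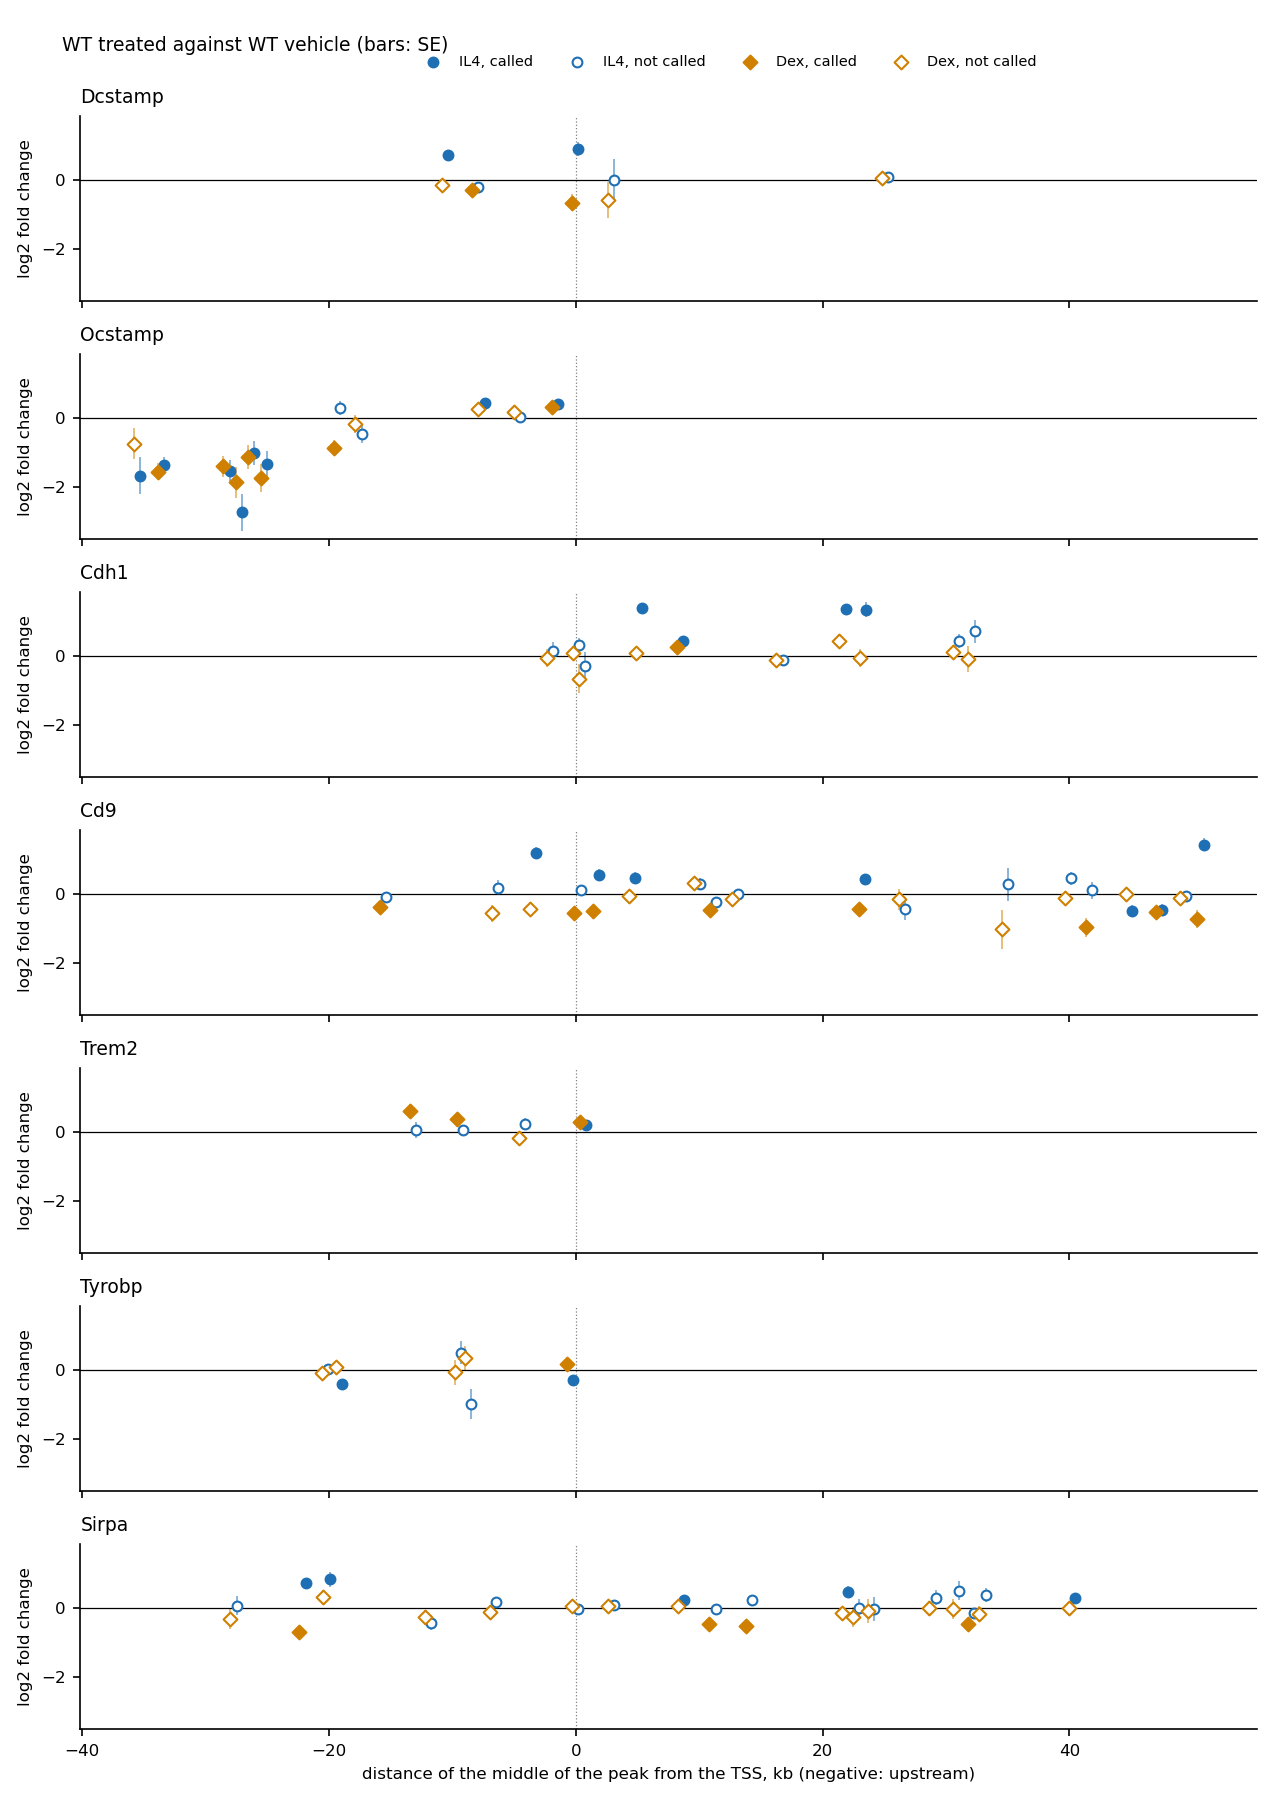
Log2 fold change (± SE) of the 71 tested peaks against the distance from the start site in kb, with IL4 as blue circles and Dex as orange diamonds, filled where called; IL4 and Dex symbols of a peak are set slightly apart along the axis. IL4 points above 1 appear in Cdh1 and Cd9, and the lowest points of both treatments lie 25.3 to 35.5 kb upstream of Ocstamp.

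Counts were also summed over all peaks of a gene, as a gene total, and tested over 16605 genes. With IL4 6 of the 7 totals were higher in WT and that of Tyrobp was lower (25.8% of all gene totals were higher and 23.8% lower). With Dex the Trem2 total was higher, that of Cd9 lower, and 5 were not called (12.3% higher and 13.4% lower among all). Between IL4 and Dex 5 totals were higher with IL4, that of Tyrobp was lower and that of Trem2 was not called (29.4% higher and 29.6% lower among all).

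**Figure D2:**
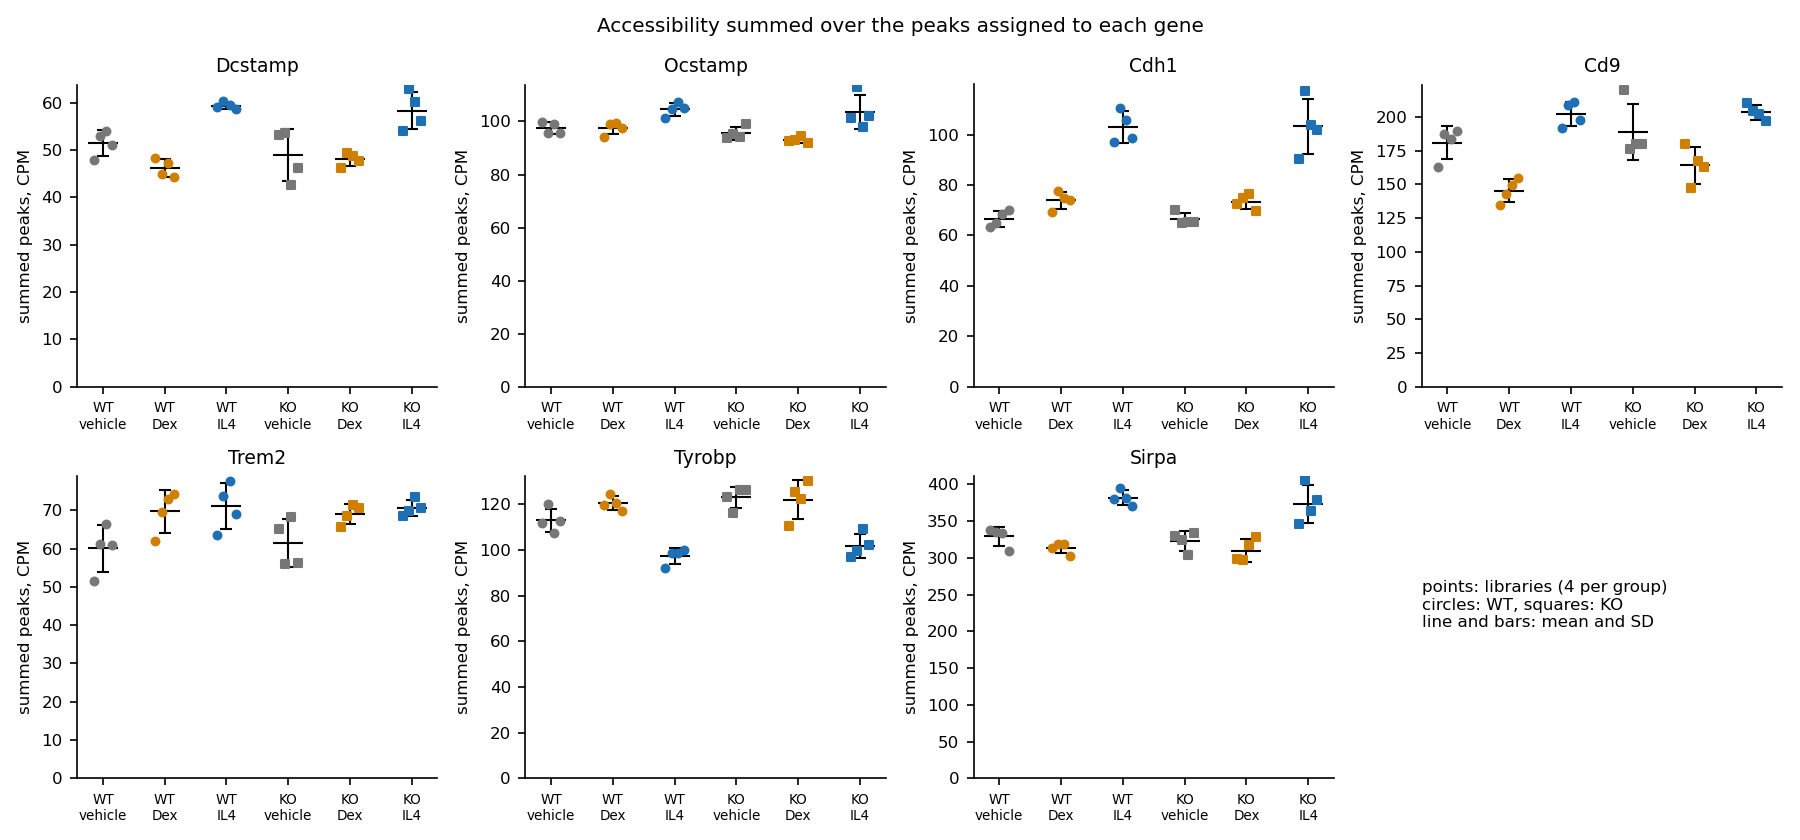
Gene totals in CPM for each of the 24 libraries, with circles for WT, squares for KO, and lines and bars for the mean and SD of 4 libraries. Cdh1 totals sit between 97.2 and 110.6 in WT IL4 and between 63.2 and 70.1 in WT vehicle, while Tyrobp totals lie lowest with IL4 in both genotypes.

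Dcstamp encodes the fusion protein DC-STAMP. Its promoter peak at -37 (chr15:39745594-39746192) held 1.68, 1.67, 2.33 and 2.15 CPM in the 4 WT vehicle libraries, 3.12, 4.13, 3.34 and 3.52 with IL4, and 1.05, 1.10, 0.816 and 1.62 with Dex. The IL4 libraries were all above and the Dex libraries all below the vehicle libraries, the Dex library nearest to vehicle by a small margin. The difference was 0.88 ± 0.20 (SE) on the log2 scale with IL4 (adjusted p = 0.000259, edgeR) and -0.67 ± 0.25 with Dex (adjusted p = 0.0483). The Dex call was lost in 9 of 15 alternatives, over which the adjusted p ran from 0.012 to 0.174, among them each of those without WT vehicle replicate 3 (-0.58) or 4 (-0.62) and WT Dex replicate 1 (-0.59), 2 (-0.65) or 3 (-0.53). KO libraries showed the same calls, 0.80 ± 0.20 with IL4 (adjusted p = 0.00128) and -0.91 ± 0.25 with Dex (adjusted p = 0.00684).

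The Dcstamp peak at -10590 (chr15:39735009-39735672) held 6.34, 6.78, 6.58 and 6.15 CPM in WT vehicle and 9.86, 9.95, 11.7 and 10.8 with IL4. Every IL4 library lay above every vehicle library, and the Dex libraries at 5.43 to 6.60 overlapped them. It rose by 0.71 ± 0.13 with IL4 (adjusted p = 3.03e-06). Of the other 3 Dcstamp peaks, that at -8163 fell with Dex, by 0.31 on the log2 scale (adjusted p = 0.0284), and that at +25059 lies inside the neighbouring gene Dpys. With IL4 in WT the peak at -8163 was not called here, while the authors' deposited log2 fold change was -0.25 with a deposited adjusted p of 0.0425.

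Ocstamp, the gene of OC-STAMP, had peaks that moved in opposite directions by position. The peak at -1698 (chr2:165401887-165402296), which overlaps a FANTOM enhancer, held 11.9, 15.7, 16.0 and 16.0 CPM in WT vehicle, 18.0, 19.0, 22.5 and 19.4 with IL4 and 16.6, 20.0, 18.9 and 18.5 with Dex. Every treated library was above every vehicle library, and vehicle replicate 1 was the lowest of its group by a wide gap. The rise was 0.41 ± 0.09 with IL4 (adjusted p = 0.000239) and 0.31 ± 0.10 with Dex (adjusted p = 0.0141). Without vehicle replicate 1 the Dex value was 0.20 and not called (adjusted p = 0.181; 0.0026 to 0.181 over 15 alternatives). The peak at -7634 rose by 0.42 ± 0.12 with IL4 (adjusted p = 0.00238).

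Farther upstream 8 small Ocstamp peaks lie between 25.28 and 35.55 kb from the start site, chr2:165425543-165436070, inside Slc13a3, a gene for a dicarboxylate transporter. Their summed level was 17.4, 10.1, 8.71 and 8.71 CPM in WT vehicle, 6, 3.84, 2.83 and 4.91 with IL4 and 5.95, 3.12, 3.75 and 4.04 with Dex. Every vehicle library was above every treated library, with replicate 1 the highest of the 4 in each of the 3 WT groups. In KO the sum was 12.7 ± 1.71 CPM with vehicle, 6.92 ± 1.01 with IL4 and 5.74 ± 0.776 with Dex, again without overlap of vehicle with either treatment. The stretch was chosen after its values were seen, so the gaps between groups are a description only.

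Of the 6 of these 8 peaks that could be tested, 6 fell with IL4 and 5 with Dex in WT. Without WT vehicle replicate 1, 4 fell with IL4 and 3 with Dex. The Ocstamp peak at -27310 had the largest difference, -2.73 ± 0.53 with IL4 (adjusted p = 1.83e-05) and -1.87 ± 0.46 with Dex (adjusted p = 0.00184), from 2.52, 1.00, 0.743 and 0.41 CPM in WT vehicle to 0.329, 0.116, 0 and 0.278 with IL4. These are 4 to 33 reads a library in vehicle and 0 to 4 with IL4, and without vehicle replicate 1 its Dex value was -1.06 and not called (adjusted p = 0.203; 0.000309 to 0.203 over 14 alternatives). At -35548 the IL4 difference was -1.67 ± 0.53 (adjusted p = 0.00814), and it too was not called without that library (adjusted p = 0.0871; 0.00162 to 0.0871 over 14 alternatives). The better covered peak at -33606, chosen after its values were seen, went from 4.28, 2.67, 2.33 and 2.87 CPM in WT vehicle to 1.48, 0.99, 0.91 and 1.48 with IL4, a difference of -1.37 ± 0.25 (adjusted p = 4.27e-06). The total over all peaks assigned to Slc13a3 itself was -0.23 ± 0.07 with IL4 (adjusted p = 0.0111) and -0.11 ± 0.07 with Dex (adjusted p = 0.283).

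The Ocstamp total covers peaks near the gene that rose with IL4, peaks far upstream that fell, and 3 tested peaks not called with IL4, among them that at -4732. It went from 97.5 ± 2.27 CPM in WT vehicle to 104.6 ± 2.41 with IL4 and 97.6 ± 2.36 with Dex. The IL4 difference of 0.10 ± 0.04 was called (adjusted p = 0.0428) and lost in 8 of 16 alternatives (adjusted p 1.91e-06 to 0.107), among them those without WT vehicle replicate 2 (0.10), 3 (0.11) or 4 (0.09) and WT IL4 replicate 2 (0.10), 3 (0.09) or 4 (0.10).

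Cdh1 encodes E-cadherin, through which IL4-treated macrophages adhere to each other. It had the largest gene total difference of the 7 with IL4, 0.63 ± 0.06 (adjusted p = 1.06e-12). The totals were 63.2, 65.0, 68.4 and 70.1 CPM in WT vehicle and 97.2, 110.6, 105.7 and 98.5 with IL4. No library of the IL4 group came near the vehicle group, and the Dex libraries, at 69.5 to 77.7, overlapped vehicle only at the edge. In KO the IL4 difference was 0.65 ± 0.06 (adjusted p = 1.19e-12).

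The Cdh1 peaks that rose lie in the gene body. At +5131 (chr8:106608364-106608598) the WT vehicle libraries held 3.28, 3.78, 4.57 and 6.05 CPM, the IL4 libraries 11.5, 11.2, 12.8 and 9.72, and the Dex libraries 4.13, 3.48, 5.06 and 5.06. IL4 libraries were all above the others, and Dex and vehicle libraries overlapped. This is a 2.59-fold difference with IL4, 1.37 ± 0.14 on the log2 scale (adjusted p = 2.96e-14), against 0.08 ± 0.16 with Dex (adjusted p = 0.794). The peak at +21613, which overlaps a FANTOM enhancer, rose from 2.62 ± 0.678 to 6.61 ± 0.430 CPM, by 1.34 ± 0.17 (adjusted p = 1.67e-10), and the peak at +23291 from 1.70 ± 0.145 to 4.23 ± 0.888 CPM, by 1.34 ± 0.21 (adjusted p = 1.73e-07).

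The Cdh1 peak with the most reads, at +8427, was higher with both agents. It held 39.7, 40.2, 44.6 and 41.1 CPM in WT vehicle, 52.0, 58.8, 57.7 and 55.7 with IL4 and 47.1, 50.1, 52.6 and 48.8 with Dex. All treated libraries were above all vehicle libraries, by 0.44 ± 0.07 with IL4 (adjusted p = 3.15e-07) and 0.26 ± 0.07 with Dex (adjusted p = 0.00587). At the Cdh1 promoter (+27) the level was 2.70 ± 0.645 CPM in WT vehicle and 3.33 ± 0.444 with IL4, and neither the IL4 value of 0.32 ± 0.20 (adjusted p = 0.214) nor the Dex value of 0.07 ± 0.20 (adjusted p = 0.868) was called.

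Cd9 encodes a tetraspanin that organises membrane proteins at the contact between fusing cells, and 11 of its 18 tested peaks were higher and 1 lower with IL4 than with Dex. Its total was 162.9, 187.4, 183.2 and 189.7 CPM in WT vehicle, 191.9, 208.7, 210.7 and 197.7 with IL4, and 134.5, 142.5, 149.1 and 154.9 with Dex. The 3 groups did not overlap, although the lowest IL4 library was close to the highest vehicle library. The difference was 0.17 ± 0.06 with IL4 (adjusted p = 0.0325) and -0.31 ± 0.06 with Dex (adjusted p = 0.000702). The IL4 call was lost in 5 of 16 alternatives (adjusted p 5.94e-05 to 0.135), among them those without WT vehicle replicate 1 (0.12), WT IL4 replicate 2 (0.15) and WT IL4 replicate 3 (0.15), and the Dex call in none of the 16.

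At the Cd9 promoter (+144, chr6:125494195-125495027) the libraries held 8.25, 9.33, 9.66 and 11.3 CPM with vehicle, 8.46, 10.2, 12.03 and 11.02 with IL4 and 5.53, 6.60, 6.61 and 7.28 with Dex. Dex libraries were all below vehicle, and IL4 libraries overlapped it. The Dex difference was -0.55 ± 0.14 (adjusted p = 0.00198) and the IL4 difference 0.12 ± 0.13 (adjusted p = 0.517).

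Away from the Cd9 promoter other peaks were called with IL4. The peak at -3460 held 2.29, 3, 3.29 and 3.38 CPM in WT vehicle, 7.07, 7.92, 6.27 and 4.91 with IL4 and 2.45, 2.02, 1.88 and 2.23 with Dex. IL4 libraries were all above the rest, by 1.18 ± 0.17 against vehicle (adjusted p = 7.66e-09), while the Dex difference of -0.43 ± 0.20 was not called (adjusted p = 0.14). The far peak at +50624 (chr6:125443983-125444279), beyond the end of Cd9 and overlapping a FANTOM enhancer, was called in opposite directions. It held 1.45, 2.44, 2.12 and 2.15 CPM with vehicle, 5.75, 4.83, 5.66 and 5.28 with IL4 and 1.19, 1.83, 1.14 and 1.07 with Dex. It was 1.42 ± 0.19 higher with IL4 (adjusted p = 1.22e-09), and the Dex difference was -0.72 ± 0.25 (adjusted p = 0.0315), with 1 Dex library inside the vehicle range.

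A pair of far Cd9 peaks nearby fell with IL4 instead: that at +44864 by 0.50 ± 0.17 (adjusted p = 0.0137) and that at +47276 by 0.46 ± 0.18 (adjusted p = 0.0327). The call at +44864 was lost in 2 of 15 alternatives, without WT vehicle replicate 2 (-0.41) and without WT IL4 replicate 3 (-0.41), with adjusted p 0.00271 to 0.0773 over all. The call at +47276 was lost in 7 of 15 (adjusted p 0.00907 to 0.118), among them those without WT vehicle replicate 2 (-0.39), 3 (-0.40) or 4 (-0.47) and WT IL4 replicate 2 (-0.47) or 4 (-0.40). The largest called Dex fall of a Cd9 peak was at +41592, from 1.80 ± 0.359 to 1.06 ± 0.426 CPM (-0.96 ± 0.28, adjusted p = 0.00808), and it was not called without WT Dex replicate 4 (-0.71, adjusted p = 0.104; 0.00347 to 0.104 over 15 alternatives). The other 3 Cd9 peaks that rose with IL4, at +1622, +4594 and +23211, did so by 0.43 to 0.55. The other 5 that fell with Dex, at -15584, +1622, +11110, +23211 and +47276, did so by 0.37 to 0.52 on the log2 scale. The peaks from +41592 on named here lie in the lncRNA gene Gm32673 (chr6:125430930-125459723).

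Sirpa encodes SIRP-alpha, the inhibitory receptor of CD47. Its promoter peak at -32 (chr2:129592014-129593601) was the most open of the 7 genes, with 109.3, 107.2, 108.7 and 99.9 CPM in WT vehicle, 103.4, 107.7, 103.8 and 103.1 with IL4 and 114, 110.4, 119.5 and 100 with Dex. The 3 groups overlapped, and neither the IL4 difference of -0.02 ± 0.06 (adjusted p = 0.817) nor the Dex difference of 0.06 ± 0.06 (adjusted p = 0.592) was called. With intensity-dependent (loess) offsets in place of TMM the IL4 value became 0.28 and was called (adjusted p = 1.65e-07; up to 0.951 over 15 alternatives).

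A peak far upstream of Sirpa, at -22143 (chr2:129570308-129571084), held 8.02, 6.56, 6.37 and 6.76 CPM in WT vehicle, 12.2, 11.6, 11.7 and 10.3 with IL4 and 5.74, 4.22, 3.43 and 3.94 with Dex. The 3 groups were fully apart, IL4 above and Dex below vehicle. The difference was 0.71 ± 0.13 with IL4 (adjusted p = 2.82e-06) and -0.69 ± 0.15 with Dex (adjusted p = 0.000256), and in KO 0.57 ± 0.14 (adjusted p = 0.000588) and -0.74 ± 0.16 (adjusted p = 0.000218). The peak at -20192 rose from 1.82 ± 0.476 to 3.33 ± 0.282 CPM with IL4, by 0.82 ± 0.21 (adjusted p = 0.00126).

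The other 3 Sirpa peaks that rose with IL4, at +8508, +21801 and +40226, did so by 0.24 to 0.47, and the other 3 that fell with Dex, at +11086, +14036 and +32025, did so by 0.46 to 0.53 on the log2 scale. The Sirpa total rose by 0.21 ± 0.04 with IL4 (adjusted p = 3.22e-05), from 329.2 ± 13.2 to 381.7 ± 10.3 CPM, and the Dex difference of -0.07 ± 0.04 was not called (adjusted p = 0.211). With only deposited gene names the Dex value was -0.16 and called (adjusted p = 0.00465; 0.00465 to 0.423 over 16 alternatives).

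**Figure D3:**
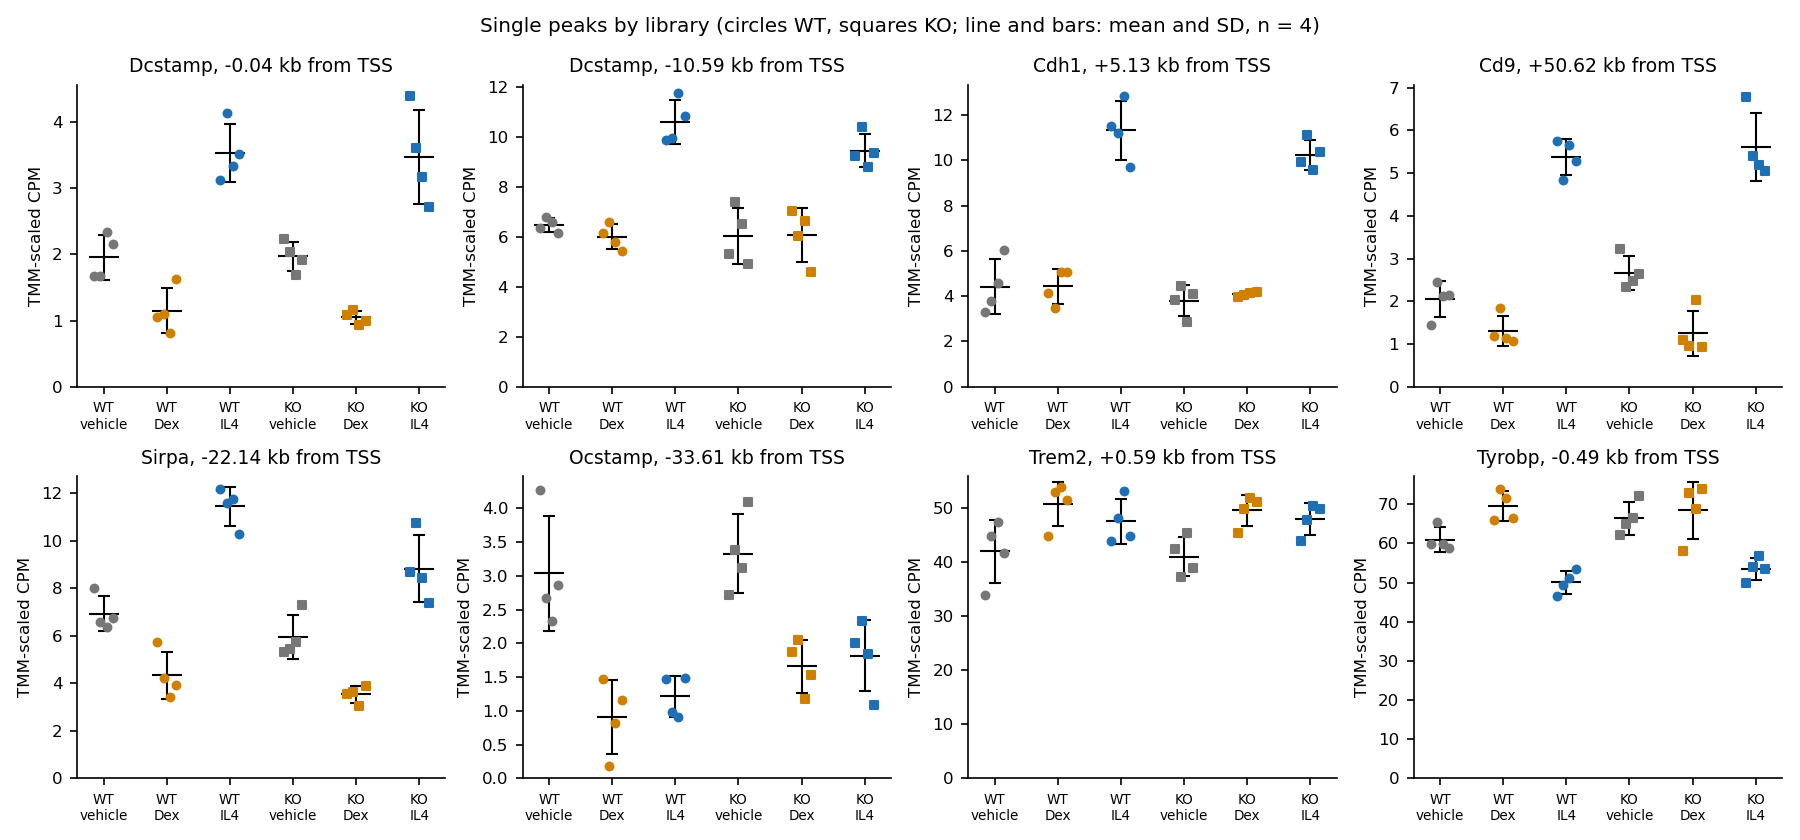
TMM-scaled CPM of 8 single peaks in each library, with circles for WT, squares for KO, and lines and bars for the mean and SD of 4 libraries. IL4 libraries lie above vehicle at Dcstamp, Cdh1, Cd9 and Sirpa peaks and below it at the Ocstamp peak at -33606 and the Tyrobp peak at -488, and Dex libraries lie below vehicle at the Sirpa peak at -22143.

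Trem2 encodes the receptor TREM2, and its promoter peak and total were called higher with both agents. The promoter peak at +586 (chr17:48346084-48347889), which holds the stretch printed above, had 34.0, 44.9, 47.4 and 41.6 CPM in WT vehicle, 44.0, 48.2, 53.2 and 44.8 with IL4 and 44.8, 53.0, 53.9 and 51.4 with Dex. The groups overlapped, and vehicle replicate 1 was the lowest library. The Dex difference was 0.28 ± 0.08 (adjusted p = 0.00572) and the IL4 difference 0.19 ± 0.08 (adjusted p = 0.0473). Without vehicle replicate 1 neither was called, with IL4 at 0.09 (adjusted p = 0.422) and Dex at 0.18 (adjusted p = 0.114), and the IL4 value was not called without vehicle replicate 4 (0.19), IL4 replicate 2 (0.19) or IL4 replicate 3 (0.14); with loess offsets the IL4 value was 0.40. Over 15 alternatives the adjusted p ran from 0.000286 to 0.422 for IL4 and from 2.42e-05 to 0.115 for Dex. In KO, whose libraries are separate from these, the same peak rose by 0.24 ± 0.08 with IL4 (adjusted p = 0.0124) and by 0.29 ± 0.08 with Dex (adjusted p = 0.00475).

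Upstream of Trem2, the peak at -13157 held 1.91, 1.22, 1.80 and 1.95 CPM in WT vehicle, 2.66, 2.57, 2.69 and 2.64 with Dex and 2.06, 1.98, 1.31 and 1.67 with IL4. Dex libraries were all above the other 2 groups, which overlapped. It was 0.60 ± 0.21 higher with Dex than with vehicle (adjusted p = 0.0377), and IL4 against Dex was at -0.56 ± 0.20 (adjusted p = 0.0174). The Dex call was lost in 9 of 15 alternatives (adjusted p 0.0302 to 0.148), at 0.49 without vehicle replicate 2 and at 0.60 to 0.67 without vehicle replicate 1 or 3 or Dex replicate 1, 3 or 4. In KO the same peak held 2.02 ± 0.243 CPM with vehicle and 2.07 ± 0.471 with Dex and was not called (0.06 ± 0.21, adjusted p = 0.895), and the difference in the Dex effect between genotypes was not called either (-0.54 ± 0.30, adjusted p = 1). The peak at -9392 rose with Dex, from 9.36 ± 0.469 to 11.8 ± 1.31 CPM (0.36 ± 0.12, adjusted p = 0.0209). The Trem2 total was 0.25 ± 0.07 higher with IL4 (adjusted p = 0.00409) and 0.23 ± 0.07 higher with Dex (adjusted p = 0.0167), and IL4 against Dex differed by 0.02, with an interval of -0.11 to 0.16 (95%). The IL4 total was 0.14 and not called with only deposited gene names (adjusted p = 0.233; 3.96e-06 to 0.233 over 16 alternatives). The Dex total was not called without WT vehicle replicate 1 (0.15, adjusted p = 0.104), WT Dex replicate 3 (0.20, adjusted p = 0.0551) or WT Dex replicate 4 (0.18, adjusted p = 0.0786), against a range of 3.48e-05 to 0.188 over 16 alternatives.

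Tyrobp, the gene of the adaptor DAP12 with which TREM2 signals, was the only one of the 7 whose total fell with IL4 in WT. Its promoter peak at -488 (chr7:30412520-30414081), which also overlaps the lncRNA gene Gm32029, held 59.7, 65.6, 59.9 and 58.7 CPM with vehicle, 46.4, 49.4, 51.0 and 53.4 with IL4 and 65.9, 73.9, 71.6 and 66.6 with Dex. IL4 libraries were all below and Dex libraries all above vehicle, the lowest Dex library by a small margin. The difference was -0.28 ± 0.07 with IL4 (adjusted p = 0.000397) and 0.18 ± 0.07 with Dex (adjusted p = 0.0466). With loess offsets the IL4 value was -0.04 and not called (adjusted p = 0.587; 1.29e-06 to 0.587 over 15 alternatives), and the Dex call was lost in 10 of 15 alternatives (adjusted p 0.00481 to 0.289), among them those without vehicle replicate 1, 3 or 4 (0.17) and Dex replicate 2 or 3 (0.16).

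The Tyrobp peak at -19206 (chr7:30394024-30395139), inside the lncRNA gene Gm42376, held 39.6, 38.8, 35.7 and 38.7 CPM with vehicle and 28.7, 29.8, 28.3 and 28.7 with IL4. The groups were far apart, by -0.40 ± 0.07 (adjusted p = 4.31e-06), and the call held in all 15 alternatives, at -0.22 with loess offsets. The Dex libraries, at 38.8 to 43.5 CPM, overlapped vehicle. The total fell by 0.22 ± 0.05 with IL4 (adjusted p = 0.000154), from 113.1 ± 5.13 to 97.3 ± 3.53 CPM, and in KO by 0.27 ± 0.05 (adjusted p = 6.46e-06). Hcst, the gene of the related adaptor DAP10 next to Tyrobp, had no assigned peak of its own.

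In KO macrophages 20 of the 71 peaks were higher and 8 lower with IL4 (30.9% of all tested peaks were called, 17.1% higher and 13.9% lower). With Dex 4 were higher and 11 lower (13.6% called, 7.01% higher and 6.61% lower), and with loess offsets 0 and 15 (8061 and 8884 of all peaks). Of the peaks called with IL4, 25 were called in the same direction in both genotypes, 86.2% of those in WT and 89.3% of those in KO. With Dex 13 were, 50% of those in WT and 86.7% of those in KO, and no peak had opposite calls. The same overlap was not counted over all tested peaks, so these shares cannot be read as particular to the 7 genes. Of 8 Cd9 peaks that fell with Dex in WT, the peak at +50624 was also called in KO.

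The gene totals of KO gave 5 higher and 1 lower with IL4 (22.6% of all totals were higher and 21.0% lower), where that of Cd9 was not called (0.11 ± 0.06, adjusted p = 0.163). With Dex the Cd9 total was lower in KO, by 0.20 ± 0.06 (adjusted p = 0.0244), with 9.61% of all totals higher and 11.9% lower. The Cd9 total was not called without KO vehicle replicate 1, KO Dex replicate 2 or KO Dex replicate 4.

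**Figure D4:**
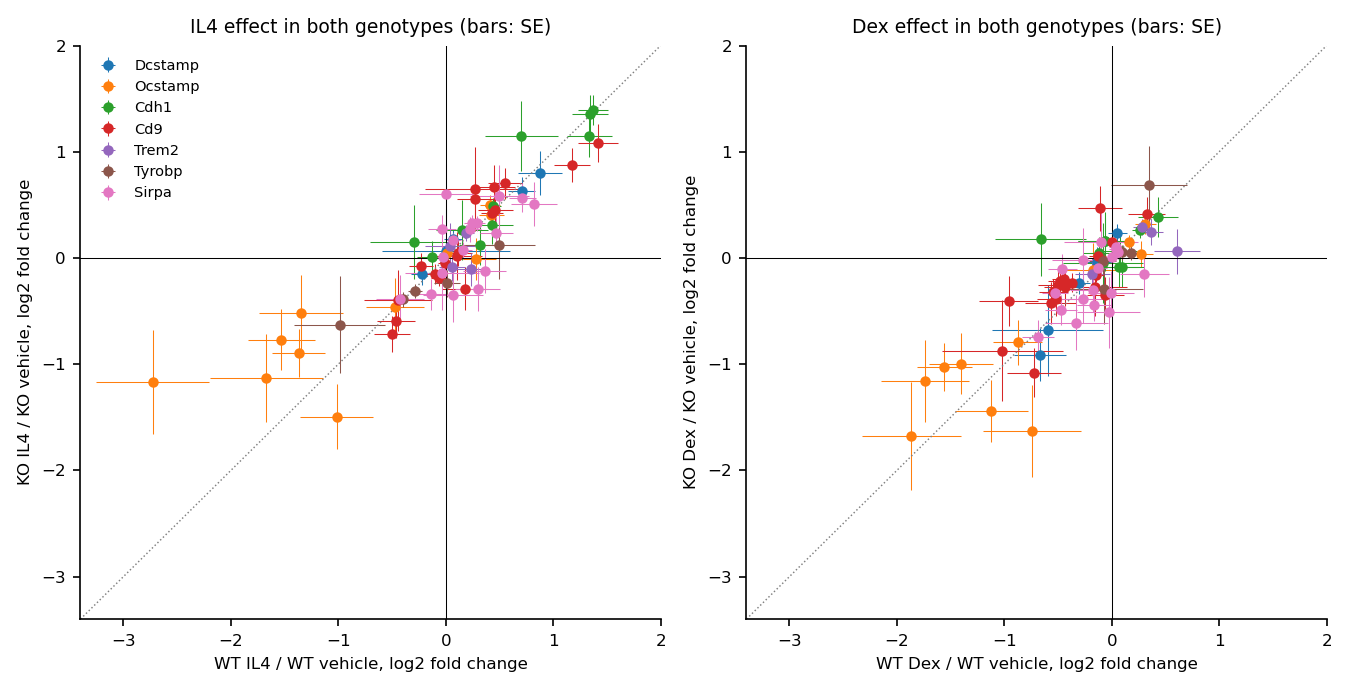
Log2 fold change (± SE) of the 71 tested peaks in KO against that in WT, for IL4 and for Dex, coloured by gene; the dotted line marks equal values. Most points lie near the dotted line, and the Ocstamp peak farthest to the left, at -27310, lies above it with -2.73 in WT and -1.17 in KO for IL4.

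Between the genotypes none of the 71 peaks was called under vehicle, Dex or IL4, by edgeR or by DESeq2 (0.617%, 0.953% and 0.842% of all tested peaks were called by edgeR). At an unadjusted p below 0.05 there were 4, 12 and 9 of the 71. The share of all tested peaks below that unadjusted p is not given here. Neither these numbers nor those of the interactions below can therefore be read as an excess. The difference in the IL4 effect between genotypes (the interaction) gave 0 calls and 2 peaks at an unadjusted p below 0.05, and that in the Dex effect 0 and 0, by edgeR, with 0 calls by DESeq2 (0.00231% and 0.0% of all tested peaks were called). So the Dex falls of Cd9 peaks that were called in WT and not in KO are not shown to differ between genotypes.

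Among the genotype values, the Cd9 peak at +41592 under Dex was at 0.85 ± 0.27, KO minus WT (95% interval 0.33 to 1.37, adjusted p = 0.118). Cd9 at the promoter was 0.38 ± 0.13 higher there (0.12 to 0.64, adjusted p = 0.204), and the Sirpa peak at -22143 under IL4 was at -0.37 ± 0.12 (-0.61 to -0.14, adjusted p = 0.147). No gene total was called between genotypes (0.759%, 1.52% and 1.19% of all totals were called under vehicle, Dex and IL4) or in an interaction (0.012% for IL4 and 0.00602% for Dex). For the Cd9 total under Dex the value was 0.17 ± 0.06 (0.04 to 0.29, adjusted p = 0.248), and for Tyrobp under vehicle 0.12 ± 0.05 (0.03 to 0.21, adjusted p = 0.309).

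Other genes of the 2 pathways were counted from lists, with the shares of all peaks and totals beside them. The 35 genes of the fusion machinery and its partners had 464 tested peaks. With IL4 in WT 125 were higher and 79 lower, or 26.9% and 17% (19.3% and 16.1% of all tested peaks). With Dex 46 were higher and 48 lower, or 9.91% and 10.3% (8.57% and 8.08% of all). The median log2 fold change with IL4 was 0.04. Among the gene totals 14 of 35 were higher and 4 lower with IL4 (25.8% and 23.8% of all totals). The largest called rises were at Atp6v0d2, a subunit of the proton pump needed for osteoclast fusion, from 2.22 ± 0.453 to 21.6 ± 1.80 CPM at its promoter (3.30 ± 0.16, adjusted p = 6.41e-29), Cd81, a tetraspanin partner of CD9 (3.12 ± 0.41, adjusted p = 5.66e-10), Cd44, a hyaluronan receptor (2.67 ± 0.15, adjusted p = 1.47e-27), and the protease gene Ctsk (2.27 ± 0.30, adjusted p = 1.01e-09). The Cd81 and Ctsk rises started from low levels in WT vehicle, 0.2227 ± 0.1335 and 0.5646 ± 0.2251 CPM. The Cd81 peak lies at -18 kb from its start site, the Cd44 peak at 51.5 kb and the Ctsk peak at 4.1 kb. The largest falls were at Tnfrsf11a, the gene of the osteoclast receptor RANK (from 3.19 ± 1.92 to 1.43 ± 0.179 CPM, -1.20 ± 0.30, adjusted p = 0.00193), and the ATP receptor gene P2rx7 (-1.14 ± 0.16, adjusted p = 3.1e-08). With Dex the Cd44 peak fell by 1.12 ± 0.23 on the log2 scale (adjusted p = 0.000128) and that of Atp6v0d2 by 0.75 ± 0.26 (adjusted p = 0.0324).

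Of 32 genes around TREM2 and DAP12, 30 had a peak and Hcst and Sirpb1c had none. Of their 417 tested peaks 133 were higher and 62 lower with IL4, at a median of 0.10. These are 31.9% and 14.9% (19.3% and 16.1% of all tested peaks). With Dex 54 were higher and 45 lower, or 12.9% and 10.8% (8.57% and 8.08% of all). Among the gene totals 18 of 30 were higher and 7 lower with IL4 (25.8% and 23.8% of all totals). The largest called rises were at Spp1, the gene of osteopontin (3.48 ± 0.23, adjusted p = 3.06e-23), the integrin gene Itgax (3.40 ± 0.15, adjusted p = 3.19e-35), and 2 genes of signalling downstream of SYK, Pik3r1 (2.48 ± 0.31, adjusted p = 1.31e-10; the peak lies at -282.5 kb from its start site) and Vav3 (2.43 ± 0.48, adjusted p = 1.93e-05). The rises at Spp1, Pik3r1 and Vav3 started from low levels in WT vehicle, 0.607 ± 0.1444, 0.5085 ± 0.3761 and 0.2029 ± 0.1779 CPM. The Spp1 peak lies at -6.5 kb from its start site and the Vav3 peak at 36.8 kb. The largest falls were at Fabp5, which encodes a fatty acid carrier (-1.84 ± 0.39, adjusted p = 7.42e-05), and Vav1 (-1.38 ± 0.20, adjusted p = 5.78e-06), and both also fell with Dex, by 1.03 and 1.11 on the log2 scale.

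Over the 24 libraries the gene totals most like each member were, by Pearson r of log2 CPM, Bach2 (0.926), Siglec15 (0.921) and Alkbh3os1 (0.915) for Dcstamp, 2310008N11Rik (0.878), Hnf4aos (0.863) and D430042O09Rik (0.857) for Ocstamp, and Ear4 (0.978), Daglb (0.976) and Ear10 (0.975) for Cdh1. They were Col15a1 (0.949), Mical1 (0.940) and Rilpl1 (0.938) for Cd9, and Mcub (0.964), Ccdc88a (0.936) and Ralgds (0.935) for Sirpa. They were Rnf150 (0.866), Gm826 (0.833) and Sost (0.832) for Trem2, and Ddx41 (0.926), Lipe (0.924) and Nfe2 (0.917) for Tyrobp. The 24 points share treatment groups and library depth, so these values describe likeness only. Siglec15 encodes a receptor that also signals through DAP12 in osteoclasts. Among the members themselves r was highest for Dcstamp and Sirpa, at 0.868, and lowest for Dcstamp and Tyrobp, at -0.782; the 6 pairs with Tyrobp were all below 0 and the other 15 all above.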

How the data were processed

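ATAC-seq was analysed in 24 libraries, 6 groups of 4. The authors deposited read counts per peak and library, not normalised, with each peak's length (other), per the file headers. A further table holds the authors' log2 fold changes, the authors' p-values (unadjusted and adjusted) and an F score per peak, which is a deposited score that was not used; it also names each peak's gene. Per the submitters' processing notes, the build is mm10 and the tools are edgeR, featureCounts, MACS2, SAMtools, Bowtie2 and fastp, with no roles given.

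Counts were fitted in R 4.3.3 with edgeR 4.0.16 (filterByExpr, TMM, 1 robust quasi-likelihood model with a mean per group over 24 libraries), for 10 comparisons. Of 75 member peaks 71 were tested; 4 short ones of 150 to 183 bases, 2 of them near Ocstamp, 1 near Cd9 and 1 near Sirpa, had too few counts. TMM factors ran from 0.937 to 1.06. A tested member peak held a median of 46 counts a library (19 to 87 by library), which limits the precision of small differences. SE is the log2 fold change divided by the square root of F. Against the authors' deposited log2 fold changes the slope of those computed here was 1 in each of 9 comparisons. On simulated data for WT IL4 against vehicle with 110974 peaks, 7.69% of peaks changed 1.5-fold, 54.7% at 2-fold and 98.4% at 3-fold were called. The simulation held only these groups, with 65, 64 and 62 changed peaks at these folds. Its spread between libraries was set larger than the common dispersion of 0.00469 fitted to the data. These shares are therefore not the detection rates of the main fit.

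The members and gene lists were chosen with earlier results of these data known. Peaks named for a member are its promoter peak, the 2 largest called rises and falls with IL4, and the largest called rise and fall with Dex, in WT; further peaks given by position were chosen after their values were seen. No peak was called between genotypes. Of each gene list the 4 largest called rises and 2 largest falls with IL4 are named. Alternatives were DESeq2 1.42.0, RLE size factors, total counts, loess offsets (limma 3.58.1, span 0.3), no filter on low counts, a replicate block, only the groups compared, only deposited gene names, and each library left out.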

Additional observations from a re-analysis of the deposited data

Results flagged for a closer look

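In 15 of 180 groups of 4 libraries 1 library stood apart from the other 3 by Dixon's gap test, and chance alone gives about 1 in 20 groups. At Ocstamp, WT vehicle replicate 1 was lowest at -1698 with 11.91 CPM (others 15.67 to 16.03) and at -7634 with 7.102 (8.401 to 8.556). WT IL4 replicate 4 was lowest at -7634 with 9.165 CPM, and KO IL4 replicate 2 highest at -1698 with 21.86. KO Dex replicate 3 was highest at the Cdh1 peak at +21613 with 3.91 CPM, at the Cd9 peak at +50624 with 2.033 and at the Cd9 peak at +44864 with 7.663. WT Dex replicate 2 was highest at the Cd9 peak at +50624 with 1.834 CPM. At the Tyrobp promoter WT vehicle replicate 2 was highest with 65.56 CPM. WT IL4 replicate 2 was highest at the Sirpa promoter with 107.7 CPM and lowest at the Sirpa peak at -20192 with 2.91.

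Among gene totals KO vehicle replicate 1 was highest for Cdh1 with 70.05 CPM (others 64.83 to 65.46) and for Cd9 with 219.6 (176.0 to 180.1). Without it 7 of the 7 totals were called with IL4 in KO. The Tyrobp total was lowest in WT IL4 replicate 1 with 92.08 CPM, and the Sirpa total in WT vehicle replicate 4 with 309.6.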

How the results depend on the processing

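Among the counts of called peaks and totals, those between genotypes and in the interactions stayed at 0 in every alternative run, apart from 1 peak when WT Dex replicate 4 or KO Dex replicate 4 (under Dex) or KO IL4 replicate 2 (under IL4) was left out. With only deposited gene names 37 peaks remained to count. Calls among them numbered 16 for WT IL4, 14 for WT Dex, 22 for WT IL4 against Dex, 15 for KO IL4 and 7 for KO Dex. The share called among all peaks with a deposited name is not given here. For WT IL4 4 gene totals were called, with 4373 higher and 3833 lower among all 16605. DESeq2 called 17 peaks for WT Dex. Only the groups compared gave 2 totals for KO Dex (1603 higher and 1731 lower among all totals).

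Leaving out 1 library at a time gave 26 to 29 called peaks for WT IL4, 18 to 22 for WT Dex, 29 to 36 for WT IL4 against Dex, 25 to 28 for KO IL4, 11 to 20 for KO Dex, and 0 to 1 for KO against WT under Dex and under IL4. For gene totals it gave 5 to 7, 1 to 4, 5 to 6, 5 to 7 and 0 to 2 in the same order. The same ranges over all peaks and all totals are not given here, so these shifts cannot be read as particular to the 7 genes. The WT Dex totals were 4 without WT Dex replicate 1, and 1 without WT Dex replicate 3 or replicate 4; those of KO Dex were 2 without KO vehicle replicate 1 or 3 or KO Dex replicate 1. Without WT Dex replicate 2, the shallowest library, WT Dex gave 22 peaks and IL4 against Dex 35.

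Directions turned only for values near 0 or for totals over fewer peaks. Leaving out 1 library at a time, the Cdh1 promoter with Dex ran from -0.034 to 0.23, below 0 without WT vehicle replicate 1 or 3, and the Ocstamp total with Dex from -0.016 to 0.011, above 0 without WT vehicle replicate 1 or 3 or WT Dex replicate 1. The Sirpa promoter was at 0.035 with total counts and 0.28 with loess offsets for IL4, and at -0.051 with loess offsets for Dex. The Ocstamp total with Dex was at 0.0014 with only the groups compared and 0.16 with only deposited names. Over deposited names only, which leaves 1 Tyrobp peak, the Tyrobp total was at 0.036 with IL4 and -0.11 with Dex. Apart from fewer peaks or libraries entering, the cause was not tested.

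With a replicate block 5 totals were called for WT Dex and 3 for KO Dex, against 2 and 1 without it. Over all 16605 totals the block gave 2704 higher and 2926 lower for WT Dex, against 2044 and 2222 without it. For KO Dex it gave 2211 higher and 2626 lower, against 1595 and 1978, so calls rose among all genes too. Libraries with the same number correlated in their deviations by 0.051 to 0.202 in WT (4 of 12 over 0.1) and by 0.003 to 0.145 in KO (5 of 12). Those with different numbers correlated by -0.086 to 0.017 in WT and by -0.123 to 0.057 in KO. A WT library set against the 4 of another treatment correlated best with its own number in 24 of 24 cases, and a KO library in 22 of 24. This is a hint from the data that the numbers may mark pairs. The labels do not say that a number marks a shared mouse, so the main fit left them unpaired. The block served as an alternative for the treatment comparisons and the interactions. For the 3 comparisons between KO and WT it is nested in genotype, so no paired analysis was possible there.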
